A study of Mus musculus with 6 samples.

Results

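The cytosolic and mitochondrial chaperone genes are a set of 43 genes, chosen by name, among the 52513 genes of a table of transcript levels in mouse lumbar spinal cord. All 43 were found in the table, each once, and all 43 reached the level set for testing, as did 14614 genes in all. The tissue was spinal cord of segments L4 to L5 from wild-type mice, and total RNA was sequenced with a stranded kit. The morphine group (3 libraries) received morphine intrathecally, 10 µg in 10 µL, over 7 days, and the saline group (3 libraries) received saline by the same route over the same time. The labels name no strain, sex or age. A run of numbers stands beside each library, but whether animals were pooled is not said, so that p-values measure the spread between these libraries, which may in part be technical.

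Chaperones hold unfolded or newly made proteins until these reach their folded state. Hsp70 proteins bind and release short stretches of a client in a cycle driven by ATP, in which J proteins (the Dnaj genes) start the hydrolysis and Hsp110 proteins exchange the nucleotide, and Hsp90 takes over many clients with the help of cochaperones. Small heat shock proteins hold clients without ATP, the Hsp60 and Hsp10 pair folds proteins inside mitochondria, and the CCT ring folds actin and tubulin. Many cells transcribe a part of these genes at rest and another part mainly under proteotoxic stress, when the factor Hsf1 binds repeats of the letters GAA and TTC in the promoters. The genes are described below in 6 groups by role: 9 inducible genes, 8 cochaperones of Hsp70 and Hsp90, 4 small heat shock proteins, 4 mitochondrial genes, 11 constitutive or tissue-restricted genes and 7 subunits of the CCT ring.

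The promoters show which members carry such repeats, and how alike the promoters of the inducible Hsp70 genes are. RefSeq windows (GRCm38.p6, from 250 bases before to 50 after a start of transcription) were found for 36 of the 43 members. Elements of 2 units (GAANNTTC or TTCNNGAA) and of 3 units (GAANNTTCNNGAA or TTCNNGAANNTTC) were searched, which together cover both strands, and each element of 3 units also holds elements of 2 units. An element of 2 units was found in 18 of the 36 members, against 16.97% of 27025 genes with a window, and one of 3 units in 5 members (13.9%), against 0.662% of these genes. A match describes the letters in the window and does not show that a factor binds there. The windows of Hspa1a and Hspa1b, the 2 inducible Hsp70 genes, are identical at 296 of 300 bases. Counted from 1 at the 5′ end of the window, the changes C44T, T47C, T249G and C276T lead from Hspa1a to Hspa1b. The stretches below run 5′ to 3′ on the strand of the gene, and capitals mark the elements. The first pair ends just after the element of the Hsp70 genes.
Hspa1b, chr17:34959329-34959488, minus strand: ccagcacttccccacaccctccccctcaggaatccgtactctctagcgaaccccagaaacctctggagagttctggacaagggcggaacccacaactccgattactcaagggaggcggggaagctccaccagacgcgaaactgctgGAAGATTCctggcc
Hspa1a, chr17:34972247-34972406, minus strand: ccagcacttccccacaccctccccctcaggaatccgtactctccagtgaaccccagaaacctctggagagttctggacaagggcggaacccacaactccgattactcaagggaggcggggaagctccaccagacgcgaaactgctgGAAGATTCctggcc
Hsph1, chr5:149636352-149636381, minus strand: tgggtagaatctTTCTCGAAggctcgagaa
Dnaja1, chr4:40722333-40722362, plus strand: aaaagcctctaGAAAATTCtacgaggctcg
Chordc1, chr9:18292259-18292288, plus strand: accgGAACGTTCGGGAAAATTCCTGAAgca
Hspe1, chr1:55088053-55088082, plus strand: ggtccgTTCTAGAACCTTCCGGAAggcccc
Dnajb6, chr5:29735842-29735871, plus strand: tcagctccgaGAATCTTCCGGAAcgctaga
Hspb1, chr5:135887789-135887848, plus strand: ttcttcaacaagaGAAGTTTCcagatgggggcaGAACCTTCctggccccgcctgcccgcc

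The Hsph1, Dnaja1 and Chordc1 stretches belong to genes that fell after morphine, while the Hspe1, Dnajb6 and Hspb1 stretches belong to genes that did not pass the test. The element of Hspe1 stands between the RefSeq starts of Hspe1 and of Hspd1 on the other strand, and so lies in the windows of both. In the GENCODE annotation, used for gene positions and overlaps, Hspe1 starts at 55088132 and Hspd1 at 55088243. The element does not stand between those starts, and all 30 bases of the stretch are annotated as exon. Of the 6 members that fell, 5 had an element of 2 units and 2 had one of 3 units. Hspa1a and Hspa1b, with nearly identical windows, are both among the 5. Of the 30 matched members that did not pass, 13 had an element of 2 units and 3 had one of 3 units. A link between elements and falls was not tested. Dnajb1, which fell, had neither in its windows.

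Depth is not stated for these libraries. It was estimated from the steps between low values at 17.7 to 19.6 M fragments in the morphine libraries and 21.1 to 25.7 M in the saline libraries. Values are given in FPKM, which divide fragments by transcript length and library size, so that levels of different genes can be compared per length. The cord libraries held the markers of their tissue, with Mbp of myelin at 11301 and 10687 FPKM on average in morphine and saline and Snap25 of neurons at 1643 and 1618 FPKM. Skeletal muscle markers summed to at most 2.57 FPKM in any library. The motor neuron markers differed within both groups. Their 7 genes summed to 44.8, 134 and 15.9 FPKM in morphine 1, 2 and 3 and to 148, 134 and 24.8 FPKM in saline 1, 2 and 3. Blood markers summed to 421 to 595 FPKM in morphine and 757 to 1077 FPKM in saline. Of the 5, 4 were lower in every morphine library than in any saline library, as were 15.7% of all tested genes. Hbb-bt passed (log2 fold change -1.20, limma adjusted p = 0.0453). Hba-a2 stood at -1.84 (limma adjusted p = 0.0892), and Alas2 overlapped between the groups (-0.09). The endothelial genes Pecam1 and Flt1 and the astrocyte gene Aqp4 were also lower in every morphine library (log2 fold changes -0.55, -0.36 and -0.33, none passing). The other endothelial marker, Cldn5 (0.11), and the other astrocyte markers, Gfap (0.04), Aldh1l1 (0.12) and Slc1a3 (-0.14), overlapped between the groups. The endothelial sums overlapped at 30.8 to 40.2 FPKM in morphine and 35.8 to 39.1 FPKM in saline. The 4 fibroblast markers had a median of -0.63, with overlapping sums of 10.0 to 35.8 FPKM in morphine and 25.9 to 36.2 FPKM in saline. The part of blood, endothelial, astrocyte and fibroblast RNA in the differences between the groups was not tested. In bulk tissue, fewer cells of a type and less RNA per cell cannot be told apart.

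After morphine, 5 of the 9 inducible chaperones and 1 of the 8 cochaperones fell relative to saline. In the other 4 roles 0 genes passed. The members and their roles were chosen with earlier results of these data known. The contrast between roles therefore describes these libraries and is no test of inducibility, and genes outside the inducible group may be inducible too. An element of 2 units was found in 6 of 8 matched inducible genes, 4 of 7 cochaperones and 3 of 3 small heat shock proteins. It was found in 2 of 3 mitochondrial genes, 1 of 9 constitutive or tissue-restricted genes and 2 of 6 CCT subunits. Of the 43 genes, 6 fell and 0 rose at a limma adjusted p under 0.05, where 0.561% of all tested genes fell and 0.944% rose (1.51% in either direction). At an unadjusted p under 0.05 there were 20 lower and 2 higher, against 11.1% and 11.2% of all tested genes. In 21 members every morphine value lay below every saline value, and in 3 every morphine value lay above, against 15.7% and 13.0% of all tested genes. The log2 fold change was below 0 in 34 of the 43, against 53.1% of all tested genes. Its median, on the log2(FPKM + 1) scale used throughout, was -0.16 over the members and -0.02 over all tested genes. Among all tested genes 82 fell and 138 rose. Centred on the median of each library, 8 members fell and 1 (Cct3) rose, where 144 of all tested genes fell and 518 rose. Rescaled to a common total (TPM), 17 members fell, with a median of -0.29 beside -0.13 over all tested genes, of which 853 fell and 101 rose. Longer genes tended to lie lower in morphine, with a Spearman rho of -0.31 between log2 fold change and exonic length over 14588 genes. With that trend removed 3 members fell, where 17 of these genes fell and 13 rose. Counts over members and over all genes also rested on single libraries. No member passed without morphine 1, without morphine 3, without saline 1 or without saline 3, where 1 or 2 of all tested genes did. Without saline 2, 2 members fell, with 4 of all tested genes lower and 4 higher, and without morphine 2, 10 members fell, with 274 lower and 531 higher.

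**Figure D1:**
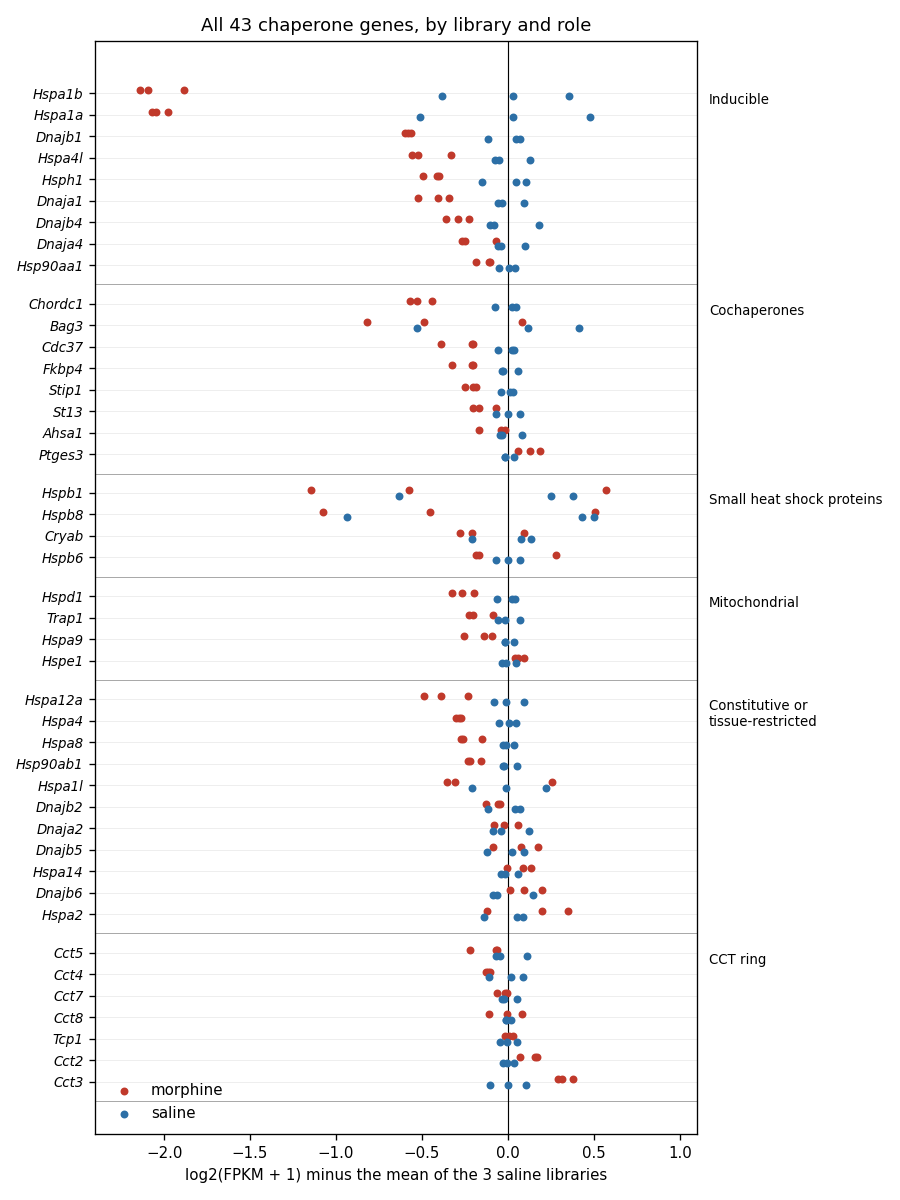
Level of each of the 43 chaperone genes in each library, as log2(FPKM + 1) minus the mean of the 3 saline libraries, with morphine in red and saline in blue and genes grouped by role. The red points of all 9 inducible genes lie left of the blue ones, as in 15.7% of all tested genes. Red and blue overlap in 5 of the 7 CCT genes and in all 4 small heat shock proteins.

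**Figure D2:**
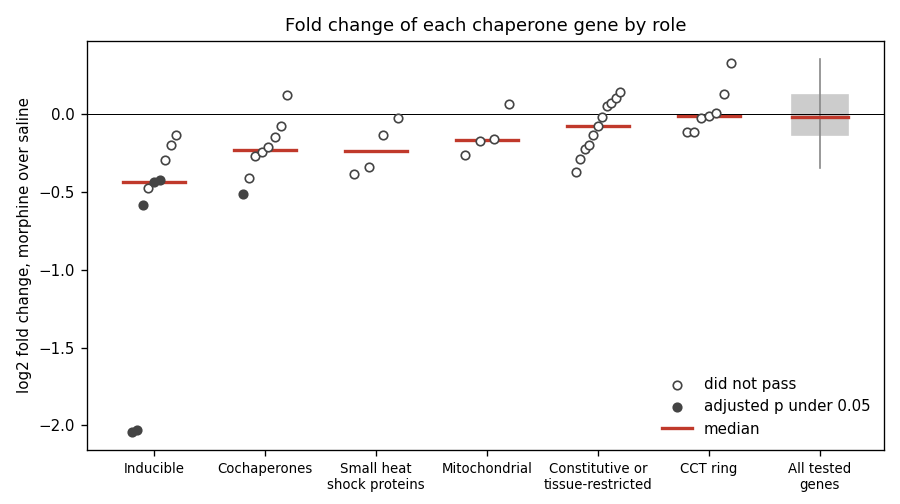
Log2 fold change of morphine over saline for each chaperone gene, by role, with filled points for adjusted p under 0.05 and a red bar at each median, beside the percentiles of all tested genes (25th -0.14, 75th 0.12, 5th -0.35, 95th 0.35). The inducible group has its median at -0.44 and the CCT ring at -0.01.

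The inducible Hsp70 genes fell furthest. Hspa1b (ENSMUSG00000090877, chromosome 17, 34956436 to 34959238, minus strand of mm10) was at 3.79, 3.63 and 4.55 FPKM in morphine 1, 2 and 3 and at 25.1, 14.7 and 19.9 FPKM in saline 1, 2 and 3. The groups lie far apart, and the saline libraries differ more among themselves than the morphine libraries do. The means were 3.99 ± 0.492 FPKM in morphine and 19.9 ± 5.23 FPKM in saline (SD, n = 3 each), and the log2 fold change was -2.04 (SE 0.18, adjusted p = 0.0149).

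Hspa1a (ENSMUSG00000091971, chromosome 17, 34969190 to 34972156, minus strand), its near copy about as long, showed the same order of libraries within saline. It was at 1.39, 1.24 and 1.28 FPKM in the morphine libraries and at 12.1, 5.61 and 8.60 FPKM in the saline libraries, and its log2 fold change was -2.03 (SE 0.23, adjusted p = 0.0361). The morphine values correspond to about 75, 60 and 65 fragments and the saline values to about 708, 398 and 500, and the 95% Poisson interval of the lowest, 60, runs from 45.8 to 77.2 and covers counting error alone. Since fragments from the shared sequence could be assigned to either gene, the sum is firmer than its division. Of the 2967 exonic nt of Hspa1a, 564 overlap Gm20481 on the opposite strand, which was at 0.33 FPKM on average. Hspa1a and Hspa1b together were at 5.18, 4.87 and 5.83 FPKM in morphine and 37.3, 20.3 and 28.5 FPKM in saline, a 5.42-fold lower mean after morphine. Saline 2, the lowest of the saline libraries, was still above every morphine library.

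**Figure D3:**
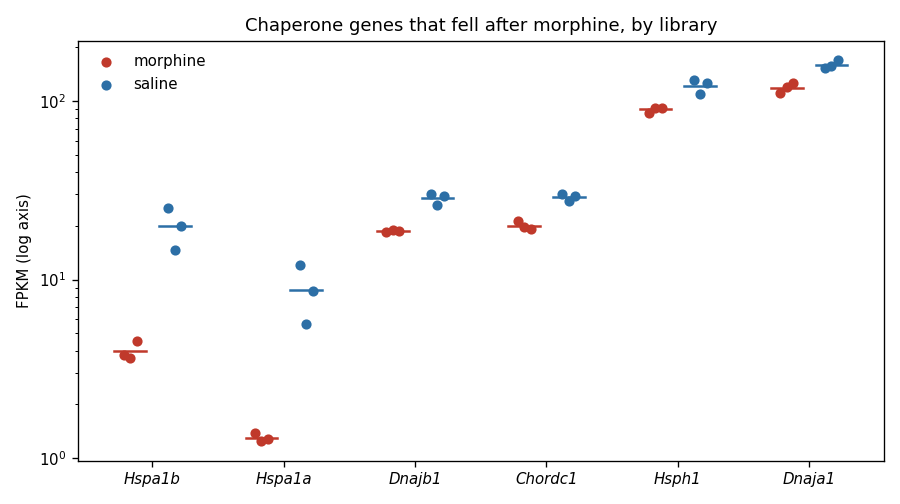
FPKM on a log axis of the 6 chaperone genes that fell, with 1 point per library and a bar at each group's mean, morphine in red and saline in blue. In each gene the 3 morphine points lie below the 3 saline points, and the gap is widest in Hspa1a (1.30 against 8.78 FPKM on average) and Hspa1b.

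The other 7 inducible genes were lower in every morphine library than in any saline library, and 3 of them fell. Of all tested genes 15.7% were lower in this way and 0.561% fell. Dnajb1 (chromosome 8, 83608193 to 83612653), the J protein that works with inducible Hsp70, was at 18.5, 19.0 and 18.7 FPKM in morphine and at 29.98, 26.26 and 29.55 FPKM in saline. These morphine libraries hardly differed from each other, and the log2 fold change was -0.58 (SE 0.07, adjusted p = 0.0375). Hsph1 (chromosome 5, 149614287 to 149636376), the Hsp110 protein that exchanges the nucleotide of Hsp70, was at 85.9, 91.2 and 92.0 FPKM in morphine and at 131, 110 and 126 FPKM in saline (log2 fold change -0.44, SE 0.08, adjusted p = 0.0488). As in the Hsp70 genes, saline 2 was the lowest of its group and remained above the morphine libraries.

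Dnaja1 (chromosome 4, 40722150 to 40737149), an abundant J protein of the cytosol, was at 111, 120 and 126 FPKM in morphine and at 153, 156 and 170 FPKM in saline. Its log2 fold change was -0.42 (SE 0.07, adjusted p = 0.0463), and 608 nt of its 8629 exonic nt overlap Smu1 on the opposite strand. Hspa4l, another Hsp110 protein, was at 26.5, 25.9 and 30.4 FPKM in morphine and 37.1, 36.5 and 42.2 FPKM in saline, and with a log2 fold change of -0.47 (SE 0.09) it missed the threshold (adjusted p = 0.0526).

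Dnajb4 and Dnaja4, J proteins related to Dnajb1 and Dnaja1, had log2 fold changes of -0.29 and -0.20 (adjusted p = 0.123 and 0.213). Of Dnaja4's 3589 exonic nt, 1581 overlap Wdr61 on the opposite strand, and the sources used here do not say if counting kept the strands apart. Hsp90aa1, the stress-responsive cytosolic Hsp90 and the most abundant gene of the group, was at 840, 800 and 844 FPKM in morphine and 913, 876 and 936 FPKM in saline (log2 fold change -0.13, SE 0.05, adjusted p = 0.183). The groups of Hsp90aa1 do not overlap, yet the difference is the smallest among the 9 inducible genes. The median log2 fold change of the inducible group was -0.44 and stayed between -0.56 and -0.37 under every other setting tried.

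Among the 8 cochaperones Chordc1 fell and the rest did not pass. Chordc1 (chromosome 9, 18292125 to 18317442), a partner of Hsp90, was at 21.2, 19.8 and 19.2 FPKM in morphine and at 30.1, 27.5 and 29.5 FPKM in saline (log2 fold change -0.51, SE 0.07, adjusted p = 0.0434). The groups are well separated. Those of Stip1, Fkbp4, Cdc37 and St13 did not overlap either, with morphine lower, as in 15.7% of all tested genes. Stip1, which hands clients from Hsp70 to Hsp90 and is the most abundant of the group, was at 120, 123 and 125 FPKM in morphine and 143, 138 and 145 FPKM in saline (log2 fold change -0.21, SE 0.05, adjusted p = 0.0690). Fkbp4, an immunophilin of steroid receptor complexes, and Cdc37, which brings kinases to Hsp90, had log2 fold changes of -0.24 and -0.27 (adjusted p = 0.0768 and 0.0844).

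St13, which steadies the ADP-bound form of Hsp70, had a log2 fold change of -0.15 (adjusted p = 0.228), and its highest morphine value (61.5 FPKM) lay just under its lowest saline value (61.61 FPKM). Ahsa1, which speeds the ATPase of Hsp90, overlapped between groups at 123 ± 6.87 FPKM in morphine and 129 ± 6.43 FPKM in saline (SD, n = 3 each). Ptges3, the p23 protein that closes the Hsp90 cycle, lay the other way, at 110, 101 and 106 FPKM in morphine and 99.0, 95.3 and 95.3 FPKM in saline (log2 fold change 0.13, adjusted p = 0.233). A pseudogene, Ptges3-ps, was at 22.0 FPKM in morphine and 27.8 FPKM in saline on average, so that the division of fragments between it and Ptges3 is uncertain. In TPM the log2 difference of Ptges3 was -0.0011. The median of the cochaperones was -0.23.

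None of the 4 small heat shock proteins passed, and their groups overlapped. Hspb1 (Hsp27), which motor neurons express strongly, was at 28.2, 63.8 and 18.7 FPKM in morphine 1, 2 and 3 and at 55.8, 51.0 and 27.2 FPKM in saline 1, 2 and 3. Hspb8, which works with Bag3 in selective autophagy, was at 16.6, 33.2 and 10.4 FPKM in morphine and at 33.1, 31.5 and 11.6 FPKM in saline. In both genes morphine 2, saline 1 and saline 2 were high and the other 3 libraries low. The motor neuron marker sums divide in the same way (44.8, 134 and 15.9 FPKM in morphine, 148, 134 and 24.8 FPKM in saline). This division is not particular to motor neuron markers. Astrocyte sums (588, 873 and 593 FPKM in morphine, 776, 758 and 550 FPKM in saline) share it. So do fibroblast sums (19.2, 35.8 and 10.0 FPKM in morphine, 36.2, 33.0 and 25.9 FPKM in saline) and the oligodendrocyte sums given below. The part of each cell type in the levels of Hspb1 and Hspb8 was not tested.

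Bag3, a cochaperone that exchanges the nucleotide of Hsp70 and binds Hspb8, had the same pattern at 11.1, 16.97 and 8.61 FPKM in morphine and 21.6, 17.4 and 10.7 FPKM in saline. The log2 fold changes of Hspb1, Hspb8 and Bag3 were -0.39 (SE 0.45), -0.34 (SE 0.50) and -0.41 (SE 0.29). With 1 library left out they ran from -0.86 to -0.0041 for Hspb1, from -0.81 to 0.027 for Hspb8 and from -0.67 to -0.20 for Bag3. With the mean level of the motor neuron markers as a covariate they were 0.04 (SE 0.11), 0.13 (SE 0.05) and -0.14 (SE 0.08), and none passed in either fit. Hspb1, Hspb8 and Bag3 were set out by library after their values were seen. In the same fit with the covariate Hspa1b stood at -2.08 (SE 0.20, adjusted p = 0.0259), and 11 members fell and 1 rose, where 384 of all tested genes fell and 514 rose.

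Cryab, an alpha-crystallin abundant in oligodendrocytes and astrocytes, was at 367, 453 and 349 FPKM in morphine and 466, 448 and 367 FPKM in saline. Its libraries fall in the same high and low sets, though with a smaller spread (log2 fold change -0.13, SE 0.13, adjusted p = 0.571). The oligodendrocyte markers, whose sums were 15269, 19295 and 14171 FPKM in morphine and 17447, 18357 and 12459 FPKM in saline, also divide in this way, and their part in the level of Cryab was not tested. Hspb6, best known from muscle, was at 8.96 ± 1.91 and 9.02 ± 0.500 FPKM in morphine and saline (SD, n = 3 each).

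**Figure D4:**
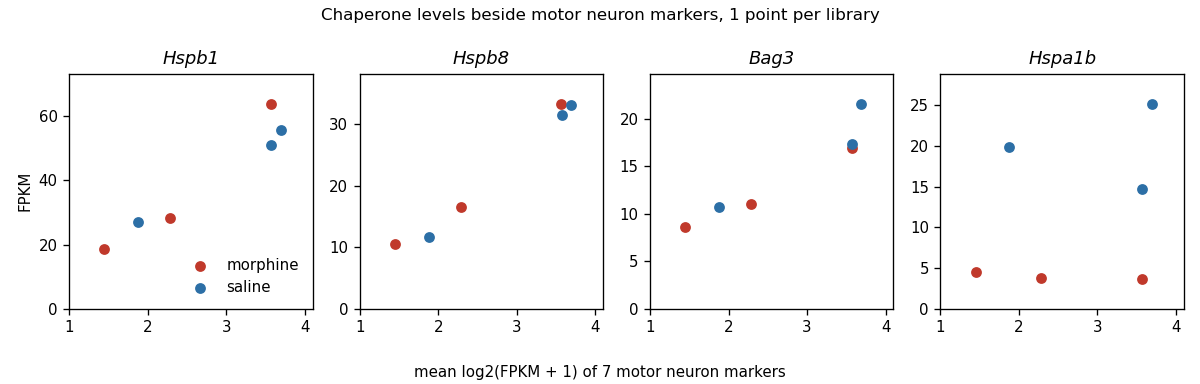
FPKM of Hspb1, Hspb8, Bag3 and Hspa1b against the mean log2(FPKM + 1) of 7 motor neuron markers, 1 point per library, with morphine in red and saline in blue. In the first 3 panels the libraries with more marker signal lie higher in both groups. Hspa1b lies at 3.63 to 4.55 FPKM in the morphine libraries and at 14.7 to 25.1 FPKM in the saline libraries. The part of motor neurons in the levels of these genes was not tested.

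Of the 4 mitochondrial chaperones 0 passed, with 3 of them lower in every morphine library (unadjusted limma p under 0.05 in the same 3). Of all tested genes 15.7% were lower in every morphine library, and 11.1% were lower at that unadjusted p. Hspd1 (Hsp60), which forms the folding chamber, was at 88.3, 96.6 and 91.9 FPKM in morphine and 114, 106 and 113 FPKM in saline (log2 fold change -0.26, SE 0.06, adjusted p = 0.0648). Hspe1 (Hsp10), the lid of that chamber, was at 155, 157 and 162 FPKM in morphine and 156, 147 and 150 FPKM in saline (log2 fold change 0.06, SE 0.05, adjusted p = 0.481). Thus Hspd1 was lower in morphine without overlap, and Hspe1, whose start lies beside that of Hspd1, was not.

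The Hspd1 and Hspe1 genes overlap by 112 exonic nt on opposite strands, and the pseudogene Hspd1-ps3 was at 5.86 FPKM in morphine and 8.58 FPKM in saline on average. Hspa9, the mitochondrial Hsp70, and Trap1, the mitochondrial Hsp90, had log2 fold changes of -0.16 and -0.17 (adjusted p = 0.175 and 0.198).

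The 11 constitutive or tissue-restricted genes had a median log2 fold change of -0.08, and 0 passed. In TPM the median was -0.20 and 4 fell, while 3 fell after quantile normalization and 3 without morphine 2. Of all 14614 tested genes 853 fell in TPM (median -0.13), 55 after quantile normalization and 274 without morphine 2. Hspa8 (Hsc70, chromosome 9, 40800984 to 40810087), the constitutive Hsp70, had the highest level of all 43 members. It was at 926, 1007 and 933 FPKM in morphine and 1145, 1109 and 1097 FPKM in saline (log2 fold change -0.23, SE 0.05, adjusted p = 0.0708). Hsp90ab1, the constitutive cytosolic Hsp90, was at 670, 642 and 636 FPKM in morphine and 774, 732 and 734 FPKM in saline (log2 fold change -0.20, SE 0.05, adjusted p = 0.0771). Neither gene's groups overlap, and morphine means were 14.5% and 13.03% below the saline means.

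Hspa4, the constitutive Hsp110 protein, was at 44.4, 44.8 and 45.2 FPKM in morphine and 56.7, 52.9 and 55.2 FPKM in saline (log2 fold change -0.29, SE 0.05, adjusted p = 0.0526). Hspa12a, a distant relative of Hsp70, had a log2 fold change of -0.37 (SE 0.08, adjusted p = 0.0670). The other 7 genes overlapped between the groups. Among them Dnaja2, a J protein close to Dnaja1, was at 88.4, 84.6 and 93.4 FPKM in morphine and 87.3, 84.5 and 97.9 FPKM in saline. Dnajb6, which holds back the aggregation of polyglutamine proteins, averaged 113 ± 7.42 FPKM in morphine and 105 ± 9.73 FPKM in saline, and Dnajb2, a J protein enriched in neurons, 84.0 ± 2.43 and 88.7 ± 6.08 FPKM (SD, n = 3 each). Hspa1l, mainly a testis gene, was near the limit of testing at 0.76, 1.60 and 0.70 FPKM in morphine and 1.16, 0.88 and 1.54 FPKM in saline. Of its 2472 exonic nt, 1778 overlap Gm10501 on the opposite strand, itself at 0.93 FPKM on average. Since the use of strand is not stated, the source of the Hspa1l signal is uncertain.

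The level of an inducible gene was set against that of its constitutive relative within each library. Such a ratio does not depend on the scaling between libraries, but it was not corrected for the trend with length. Dnaja1 (8629 exonic nt) is longer than Dnaja2 (2975), Hsph1 (7266) than Hspa4 (5528) and Hspd1 (2642) than Hspe1 (1474). Hsp90aa1 (3931) is also longer than Hsp90ab1 (2999), while Hspa1a (2967) and Hspa1b (2803) are shorter than Hspa8 (4301). The ratio of Hspa1a plus Hspa1b to Hspa8 was 0.00559, 0.00484 and 0.00625 in morphine and 0.0325, 0.0183 and 0.0260 in saline, which is 4.50-fold lower after morphine. Inducible Hsp70 was thus a small addition to constitutive Hsp70 in every library, and a smaller one in each morphine library. The ratio of Dnaja1 to Dnaja2 was 1.26, 1.42 and 1.35 in morphine and 1.76, 1.85 and 1.74 in saline, 24.8% lower. The ratio of Hsph1 to Hspa4 was 1.94, 2.03 and 2.03 in morphine and 2.30, 2.07 and 2.27 in saline, 9.66% lower.

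The Hsp90 pair differed from these. The ratio of Hsp90aa1 to Hsp90ab1 was 1.25, 1.25 and 1.33 in morphine and 1.18, 1.20 and 1.28 in saline, with overlapping groups (log2 difference 0.07, exact permutation p = 0.3). The ratio of Hspd1 to Hspe1 was 0.569, 0.615 and 0.569 in morphine and 0.732, 0.720 and 0.751 in saline, 20.5% lower. The exact two-sided permutation p was 0.1 for each of the 4 ratios whose groups do not overlap, the smallest that 3 against 3 libraries allows, and 0.125 adjusted over the 5 ratios.

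**Figure D5:**
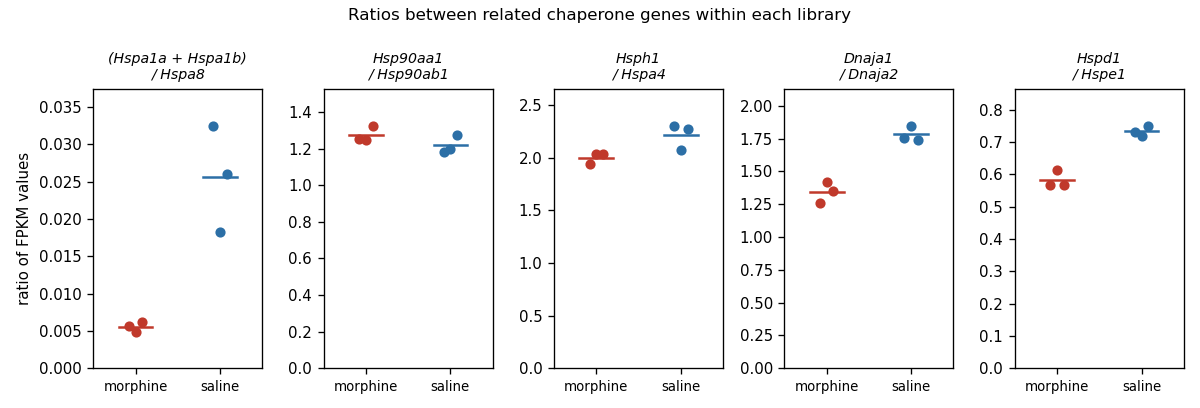
Ratio of FPKM values between related chaperone genes within each library, for 5 pairs, with 1 point per library, a bar at each group's mean and axes that start at 0. The morphine points lie below the saline points in every pair but Hsp90aa1 over Hsp90ab1, whose groups overlap at 1.28 ± 0.0437 and 1.22 ± 0.0512 (SD, n = 3 each).

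The CCT ring had a median log2 fold change of -0.01, beside -0.02 over all tested genes. In TPM the median was -0.14, beside -0.13 over all tested genes, and after median centring it was 0.017. Its 7 measured subunits lay between 59.3 and 139 FPKM in morphine and between 64.4 and 118 FPKM in saline on average, and 0 passed. Cct3 (chromosome 3, 88297116 to 88321767) had the highest mean and the smallest p, at 138, 136 and 144 FPKM in morphine and 119, 111 and 103 FPKM in saline (log2 fold change 0.33, SE 0.07, adjusted p = 0.0571), and in TPM its log2 fold change was 0.20. All 3 morphine libraries of Cct3 were above the saline libraries, the only other such subunit being Cct2 (log2 fold change 0.13, adjusted p = 0.202). Of all tested genes 13.0% lay this way. Tcp1, Cct7 and Cct8 had log2 fold changes of 0.01, -0.03 and -0.01, and Cct4 and Cct5 each of -0.12, all with overlapping groups.

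The 95% intervals of these 5 subunits bound the difference. The widest, that of Cct5, ran from -0.29 to 0.05, so that falls of the size of Dnajb1 lie outside it, and that of Tcp1 ran from -0.11 to 0.12. The ring subunit Cct6a, which is not a member, was at 114 ± 9.94 FPKM in morphine and 115 ± 8.25 FPKM in saline (SD, n = 3 each).

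A further 71 genes of chaperone regulation were listed, of which 66 were tested, 0 fell and 1 rose (background 0.561% and 0.944%), and their median log2 fold change was 0.03. Hsf1, the main heat shock factor, was at 12.2, 9.60 and 12.9 FPKM in morphine and 10.8, 10.2 and 11.4 FPKM in saline, and Hsf2, a relative, at 12.5 ± 0.495 and 12.6 ± 0.599 FPKM (SD, n = 3 each; adjusted p = 0.692 and 0.926). The signs of both turned under other scalings, so the transcripts of these factors show no direction, and the activity of Hsf1 is not measured by its transcript.

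Pfdn5, a subunit of prefoldin, the complex that delivers actin and tubulin to the CCT ring, was the gene that rose. It was at 364, 303 and 359 FPKM in morphine and 236.43, 241.95 and 248.57 FPKM in saline (log2 fold change 0.49, SE 0.08, adjusted p = 0.0462). It did not pass after quantile normalization (adjusted p = 0.0665), with the trend of fold change on transcript length removed (0.0622), with no filter (0.0992), without the intensity trend (0.0755) or with the replicate number as a block (0.0523). With 1 library left out its adjusted p ran between 0.0142 and 0.154, and it passed without morphine 2 alone. Of the 15 tested genes of prefoldin, other CCT subunits and cofactors and tubulin folding, 12 had a log2 fold change above 0. Over all tested genes 6849 of 14614 did. The median of the 15 was 0.23, beside -0.02 over all tested genes, and it was 0.11 in TPM and 0.17 with the length trend removed. Next in p were Tbca, a tubulin cofactor (0.31, adjusted p = 0.0506), Dnajc7, a J protein that binds Hsp70 and Hsp90 (0.32, adjusted p = 0.0641), and Bag1, which exchanges the nucleotide of Hsp70 (0.23, adjusted p = 0.0669).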

How the data were processed

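RNA was measured in 6 libraries, 3 after morphine and 3 after saline. The authors deposited FPKM values with 2 decimals per gene, and bcl2fastq 2.19.0, Trimmomatic, STAR, RSEM and mm10 are named in the submitters' processing notes. Neither the annotation release nor the use of strand is stated in the labels. The deposited FPKM were not rescaled. Genes that reached 1 FPKM in 3 or more libraries were tested on log2(FPKM + 1), so that folds of genes near 1 FPKM are understated, with limma 3.58.1 (R 4.3.3, variance trend, two-sided, Benjamini-Hochberg over all 14614 genes, threshold 0.05). The test was tried on simulated data. Ratios, estimates of depth and plots used Python 3.11.15, NumPy 2.4.6, SciPy 1.17.1, pandas 2.3.3 and matplotlib 3.10.9. Depth was the value at which low FPKM of genes with 1 transcript came closest to whole fragments, and 76.9% to 85.0% of these came within 0.1 of a whole number, where even spreading gives 20%. Coordinates, exonic lengths and overlaps came from GENCODE M21 on mm10, and promoters from RefSeq.

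The members, their roles, the lists and the rule for named genes were chosen with earlier results of these data known. By that rule, values in every library were given for members that passed, members of the 5 ratios, and the member with the highest mean and that with the smallest p of each role. Of the other listed genes, those that passed, Hsf1, Hsf2 and those next in p were named. Other pseudocounts, filters, scalings, a replicate block, a marker covariate, a length correction and each library left out were tried as alternatives.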

Additional observations from a re-analysis of the deposited data

How the results depend on the processing

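The 6 members that fell were 5 with a pseudocount of 0.1 FPKM, 0 with no filter on low values (20 at an unadjusted p under 0.05), 8 at a minimum of 5 FPKM (Hspa1a and Hspa1b among them, which reach it in saline alone and so give no support there), 17 in TPM, 11 after quantile normalization, 8 after median centring, 2 without the intensity trend, 2 with the replicate number as a block, 11 with the motor neuron covariate and 3 (Hspa1a, Hspa1b and Dnajb1) with the length trend removed. They were 0 to 10 with 1 library left out. Those that passed without the intensity trend and with the block were Hspa1a and Hspa1b. Hsph1, Dnaja1 and Chordc1, which did not pass with the length trend removed, hold 7266, 8629 and 7498 exonic nt. Hspa1a, Hspa1b and Dnajb1, which did, are shorter at 2967, 2803 and 3204 exonic nt. The count that rose, 0 at first, was 1 (Cct3) at a minimum of 5 FPKM, with median centring and with the covariate, and 0 with any library left out. The median of the members, -0.16, was -0.29 in TPM and -0.22 after quantile normalization, and -0.21 to -0.14 with 1 library left out. Relative to all tested genes it was -0.15, and -0.16 in TPM. Over all tested genes, 65 fell and 113 rose with the pseudocount of 0.1 FPKM. With no filter 2 fell and 6 rose of 28021, and at a minimum of 5 FPKM 107 and 231 of 10310. After quantile normalization 55 fell and 47 rose, and without the intensity trend 22 and 14. With the block 7 fell and 17 rose, and with the length trend removed 17 and 13. Those in TPM, after median centring and with the covariate are given above.

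The log2 differences of the ratios kept their sign with 1 library left out, at -2.39 to -1.98 for the Hsp70 genes, 0.04 to 0.10 for the Hsp90 pair, -0.20 to -0.12 for Hsph1 over Hspa4, -0.45 to -0.36 for Dnaja1 over Dnaja2 and -0.37 to -0.31 for Hspd1 over Hspe1. Each of the 6 genes that fell kept its sign under all 16 other settings, with 11 passes of 16 for Hspa1a and Hspa1b (that at the 5 FPKM minimum included) and 6 to 8 for the others.

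Among members, signs turned in 12 that passed under no setting. In TPM these were Hspa14 (-0.051), Hspe1 (-0.064), Dnajb5 (-0.071), Dnajb6 (-0.026), Ptges3 (-0.0011) and Tcp1 (-0.12), after quantile normalization Hspb6 (0.010), Hspe1 (-0.012) and Tcp1 (-0.061), and after median centring Hspb6 (0.0038), Dnaja2 (0.013), Cct7 (0.0018) and Cct8 (0.017). With the covariate they were Hspb1 (0.036), Hspb6 (0.068), Hspb8 (0.13) and Tcp1 (-0.011), and with the length trend removed Hspe1 (-0.017) and Cct7 (0.032). With 1 library left out, ranges that cross 0 were -0.18 to 0.056 (Hspb6), -0.0069 to 0.12 (Dnajb5), -0.058 to 0.047 (Dnaja2), -0.058 to 0.038 (Cct8), -0.81 to 0.027 (Hspb8), -0.017 to 0.031 (Tcp1) and -0.043 to 0.0014 (Cct7). The causes were not tested.

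Deviations of same-numbered libraries correlated at -0.129, 0.161 and 0.295 across genes, and those of differently numbered libraries at -0.341 to 0.238. Correlations this weak and mixed in sign do not settle if the replicate numbers pair the samples. Depth limits Hspa1l, at about 29 fragments in its lowest library.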
